A study of Mus musculus with 3 samples.

Results

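Semaphorins and the plexins and neuropilins that receive them were profiled here in RNA captured with tagged ribosomes from the mouse cortex-amygdala transition zone. The 33 members are all genes of the count files named as semaphorins, plexins, plexin domain containing proteins or neuropilins, of 32532 genes listed in all. They comprised 20 semaphorins, 9 plexins, 2 neuropilins and the 2 Plxdc genes. The series had 1 group, adult untreated control mice of line OI82, whose Lypd1-EGFP-L10a transgene puts an EGFP tag on ribosomal protein L10a, with 3 libraries from polysomes pulled down with anti-EGFP antibodies. The design text gives 3 mice, with no word on pooling of animals. The tag is driven by Lypd1 sequences in this 1 line, so the tagged cells are those that express the transgene there. No unpurified tissue was used here for comparison, and a level in captured RNA is not an enrichment.

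Semaphorins are guidance cues that steer growing axons and, in the adult brain, take part in shaping spines and synapses. Class 3 semaphorins are secreted and mostly bind a neuropilin, which holds the ligand, while a plexin A carries the signal across the membrane. The other classes are fixed to the membrane and bind plexins directly. Plexins act inside the cell through a GTPase-activating domain on small GTPases and through partners that alter actin and microtubules.

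The libraries held 8668527 to 24690301 counts assigned to genes. Levels are CPM, gene counts scaled to the library's assigned total, and single genes are ranked against each other only as CPM per kb of annotated exon. Sums of CPM over lists are not corrected for length and set no order between genes. A count of 0 allows up to 3 counts, which is 0.122 to 0.346 CPM depending on the library, a floor that covers counting error only. A value with ± gives mean and SD across libraries (n = 3). Lypd1, the gene of the line, was present at 232, 601 and 272 CPM in replicates 1, 2 and 3. Neuron markers were all detected (8 of 8), with a summed level of 9489 to 17399 CPM. Markers of other cells were present too, with sums of 467 to 1091 CPM over 8 astrocyte genes and 226 to 386 CPM over 8 oligodendrocyte genes. The sums were 121 to 251 CPM over 6 genes of oligodendrocyte precursors, 56.4 to 170.2 CPM over 8 mural and fibroblast genes, 31.0 to 67.0 CPM over 8 endothelial genes and 25.1 to 41.1 CPM over 8 microglial genes. All astrocyte and precursor markers were detected at the threshold given below, 7 of 8 oligodendrocyte, 6 of 8 endothelial, 6 of 8 mural and fibroblast and 4 of 8 microglial markers, and 0 markers had no count in any library. In bulk RNA, fewer cells of a type and less RNA per cell cannot be told apart. With no unpurified tissue or untagged control used here, RNA of tagged cells cannot be told from RNA carried over from untagged cells.

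All 11 plexin and neuropilin genes reached 1 CPM in every library, the threshold for detection here, against 16 of 20 semaphorins. Both Plxdc genes were detected too, which made 29 of 33 members, beside 39.3% of all listed genes and 57.6% of protein-coding genes. The 4 that fell short were the semaphorins Sema3b, Sema3g, Sema4c and Sema6c, and of these Sema3b, Sema4c and Sema6c fell short in replicate 2 alone. Together the members took 1482, 1333 and 1799 CPM in replicates 1, 2 and 3.

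Receptor genes had a higher median level than ligand genes in every library. In replicates 1, 2 and 3 the receptors had median levels of 5.43, 5.69 and 9.65 CPM per kb, and the ligands 3.81, 2.59 and 3.27 CPM per kb. The ranges over libraries did not overlap, and replicate 3 had the widest gap. Replicate 3 also had the fewest assigned counts, 8668527, and the largest share of reads in no counted feature. That share was 45.3%, against 31.4% and 25.6% in replicates 1 and 2. Its part in the gap was not tested. The 13 ligands fixed to the membrane had medians of 5.30, 5.06 and 5.295 CPM per kb, close to the receptors in replicates 1 and 2. The median over all 11741 detected genes with a known length was 5.81 ± 0.318 CPM per kb. The difference of the receptor and ligand medians on the log2(CPM per kb + 0.1) scale was 0.53, 1.11 and 1.55 in the 3 libraries, with a mean of 1.06 ± 0.51. Its size depended on the measure, with 1.67 ± 0.34 on log2(CPM + 1) without length correction and 0.52 ± 0.46 per kb of coding sequence. Per kb of coding sequence it was 0.09, 0.46 and 1.01 in replicates 1, 2 and 3. No p is given for this score over the members. Of the 20 ligands 2 exceeded the receptor median of mean CPM per kb, and 8 of 11 receptors exceeded the ligand median. Summed CPM, which are not corrected for length, were 782.8, 779 and 1003 for receptors against 628, 499 and 745 for ligands, a ratio of 1.38 ± 0.161.

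**Figure D1:**
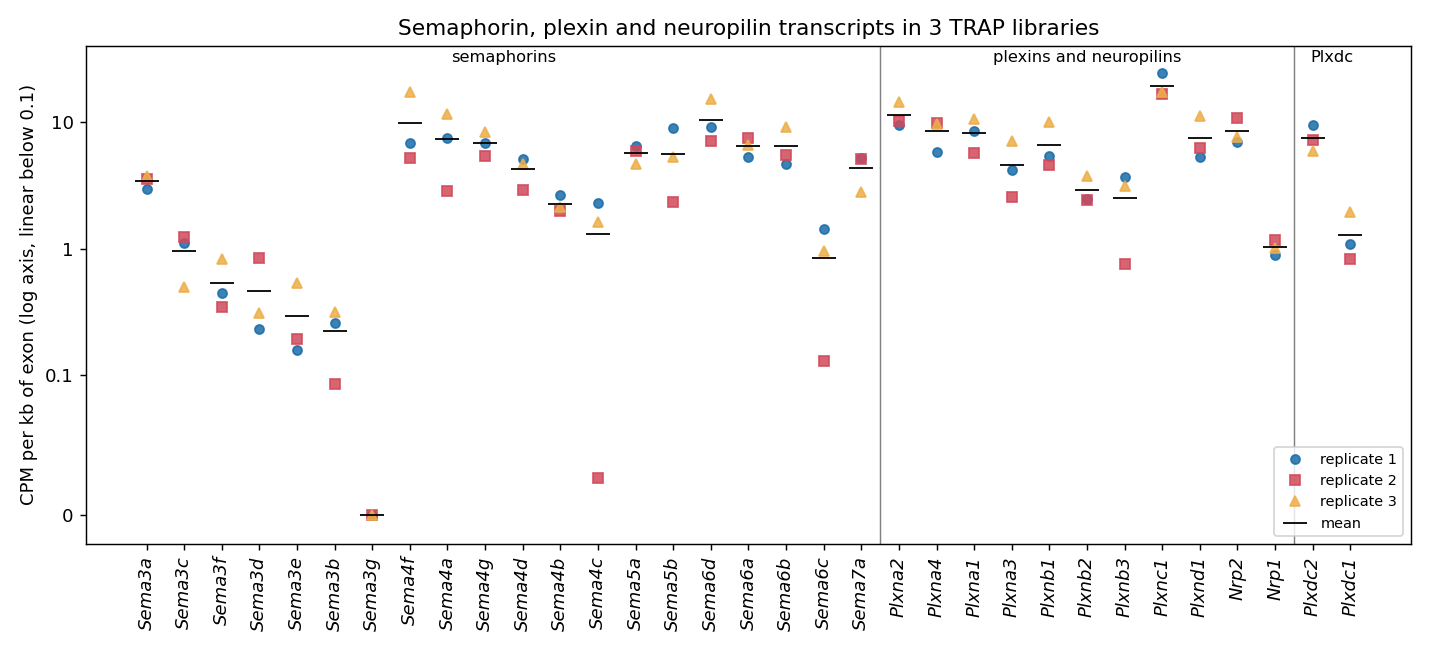
Level of each of the 33 members in CPM per kb of exon (y axis, logarithmic above 0.1 and linear below) in the 3 libraries (symbols), with the mean as a bar, grouped by family class along the x axis. Plxnc1 has the highest mean at 19.4 CPM per kb, secreted semaphorins other than Sema3a lie below 1.3 in every library, and Sema4c and Sema6c are far lower in replicate 2 than in the other libraries.

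Among the plexins, Plxnc1, the receptor of Sema7a, had the highest mean level per kb of exon of all members. It measured 203, 139 and 144 CPM in replicates 1, 2 and 3, or 19.4 ± 4.25 CPM per kb, the 83.6th percentile of detected genes. It ranked 1 or 2 among the 33 members in each library. Plxnc1 (ENSMUSG00000074785.5) spans chr10:94790866-94944835 on the minus strand of GRCm38, with 8349 exon bases. Replicate 1 was the highest, and replicates 2 and 3 lay close together.

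All 4 A-type plexins, the signalling partners of neuropilins and receptors of class 6 semaphorins, were detected. Plxna2 measured 163, 176 and 246 CPM, or 11.3 ± 2.61 CPM per kb, and ranked 3 or 4 in each library. It spans chr1:194618218-194816869 on the plus strand and has 17174 exon bases. Per kb of coding sequence Plxna2 came first of all members at 34.03, Sema6d was at 33.96 and Plxnc1 ranked 3 at 33.6. Plxdc2, Sema5a and Nrp2 were close behind at 32.9, 32.9 and 32.7. The lead of Plxnc1 thus depended on the length used. Plxna4, which pairs with Nrp1 in sensory and cortical axons, measured 81.8, 139.8 and 136 CPM (8.45 ± 2.30 CPM per kb). Plxna1, a receptor of Sema6d, measured 77.2, 51.5 and 94.9 CPM (8.23 ± 2.41 CPM per kb). Plxna3, which pairs with Nrp2 in the response to Sema3f, was the lowest of the 4 at 33.1, 20.3 and 55.6 CPM (4.61 ± 2.27 CPM per kb). Per kb of exon, the levels of Plxna4 and Plxna1 differed by less than their spread, while Plxna3 was below the other 3 in each library. Per kb of coding sequence Plxna4 and Plxna1 were further apart, at 21.0 and 13.1. The exons of Plxna1 share 10.7% of their bases with Gm26811 on the opposite strand, and the strand setting of the counts was not given, so reads there cannot be assigned by strand.

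B-type plexins couple to RhoA through PDZ-containing exchange factors, and Plxnb1 and Plxnb2 bind class 4 semaphorins. The B-type median level was lower than the A-type one, though single genes of the classes overlapped. Plxnb1, the Sema4d receptor, measured 52.1, 43.8 and 95.3 CPM (6.64 ± 2.88 CPM per kb). At 5.43, 4.56 and 9.93 CPM per kb it was above Plxna3 in each library, which was at 4.21, 2.57 and 7.06, and in replicate 3 also above Plxna4 at 9.65. Plxnb2 measured 19.1, 18.6 and 29.1 CPM (2.88 ± 0.765 CPM per kb). Plxnb3 was at 23.8, 4.90 and 20.2 CPM (2.51 ± 1.55 CPM per kb), with replicate 2 well below the other libraries. Plxnb3 is known in mouse brain mainly from oligodendrocytes, and the oligodendrocyte marker sum was 386, 233 and 226 CPM in replicates 1, 2 and 3. Its part in the Plxnb3 values was not tested. The median over the B-type plexins was 3.28 ± 0.754 CPM per kb, against 8.34 ± 1.53 for the A-type, and the medians of the 3 libraries did not overlap. Plxnd1, which binds Sema3e without a neuropilin and is prominent in blood vessels, measured 38.3, 45.3 and 81.3 CPM (7.53 ± 3.16 CPM per kb). The endothelial marker sum was 52.4, 67.0 and 31.0 CPM in replicates 1, 2 and 3, and its part in the Plxnd1 values was not tested.

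The neuropilins were far apart. Nrp2, the coreceptor of Sema3f, measured 82.9, 129 and 90.2 CPM, or 8.49 ± 2.07 CPM per kb. Nrp1, the coreceptor of Sema3a and also of vascular growth factors, measured 8.74, 11.4 and 9.81 CPM, or 1.02 ± 0.138 CPM per kb. Nrp2 exceeded Nrp1 in 3 of 3 libraries, by 2.84, 3.11 and 2.81 on the log2(CPM per kb + 0.1) scale (mean 2.92 ± 0.17). Sign flips over the 3 libraries, an exact two-sided permutation test, gave p = 0.25, the smallest possible. The ratio of mean levels per kb was 8.32. Nrp1 (ENSMUSG00000025810.9) spans chr8:128358604-128503363 and Nrp2 (ENSMUSG00000025969.15) chr1:62703285-62818695, both on the plus strand.

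Plxnc1 was the member with the highest mean level per kb of exon, and Sema3g the member with no counts. Their promoter windows and those of both neuropilins are shown so that genes that differ in level can be set side by side. Each holds 250 bases before and 50 bases after a RefSeq transcription start (GRCm38.p6), written along the gene's strand from 5′ to 3′, and capitals mark every CG dinucleotide, a motif that reads the same on both strands. They lie at chr8:128358823-128359122 (plus strand), chr1:62703067-62703366 (plus strand), chr10:94944796-94945095 (minus strand) and chr14:31217623-31217922 (plus strand), in the order below.
Nrp1: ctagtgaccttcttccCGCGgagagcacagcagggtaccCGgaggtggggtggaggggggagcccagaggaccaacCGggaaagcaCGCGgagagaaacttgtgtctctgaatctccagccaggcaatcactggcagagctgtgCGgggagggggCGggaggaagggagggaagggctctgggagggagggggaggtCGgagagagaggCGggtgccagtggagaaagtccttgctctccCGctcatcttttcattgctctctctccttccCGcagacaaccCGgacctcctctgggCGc
Nrp2: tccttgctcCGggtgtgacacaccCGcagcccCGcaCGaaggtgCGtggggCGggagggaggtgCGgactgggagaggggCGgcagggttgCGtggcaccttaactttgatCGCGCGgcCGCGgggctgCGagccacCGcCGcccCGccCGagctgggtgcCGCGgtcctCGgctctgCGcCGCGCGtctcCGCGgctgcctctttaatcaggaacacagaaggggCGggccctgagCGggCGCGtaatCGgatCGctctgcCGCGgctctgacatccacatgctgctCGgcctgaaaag
Plxnc1: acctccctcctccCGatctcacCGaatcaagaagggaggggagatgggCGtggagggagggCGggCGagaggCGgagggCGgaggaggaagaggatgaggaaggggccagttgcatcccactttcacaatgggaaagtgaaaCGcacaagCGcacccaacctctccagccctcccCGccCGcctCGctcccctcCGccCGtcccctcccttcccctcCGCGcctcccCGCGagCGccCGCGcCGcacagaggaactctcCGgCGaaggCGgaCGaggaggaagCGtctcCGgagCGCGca
Sema3g: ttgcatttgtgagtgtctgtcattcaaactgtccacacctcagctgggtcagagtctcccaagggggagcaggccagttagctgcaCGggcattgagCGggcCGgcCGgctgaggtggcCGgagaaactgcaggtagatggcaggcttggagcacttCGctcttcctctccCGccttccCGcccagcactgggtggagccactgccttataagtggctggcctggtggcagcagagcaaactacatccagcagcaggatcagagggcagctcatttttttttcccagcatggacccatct

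The Nrp2 window held 37 CG dinucleotides, a number that 5.58% of the 32851 promoter windows in the RefSeq table reach. The Plxnc1 window held 30, which 11.7% of windows reach. The Nrp1 window held 14 (36.3% of windows reach it) and the Sema3g window 8 (48.7%). Of the members 26 had a window in the table, and the median was 15 CG over their 37 windows against 7 over all windows. The count did not order the members, since the single window of Sema3c held 42 CG and that of Sema4f, at a higher level, 7. The single window of Sema3a held 2 CG. It starts at chr5:13396534, inside the annotated gene, which starts at chr5:13125414. The Nrp1 window also starts inside its annotated gene, at chr8:128358823 against a gene start of chr8:128358604. The Nrp2 window starts at chr1:62703067, before its gene start of chr1:62703285. The CG numbers are counts of letters and say nothing of binding or methylation.

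Secreted semaphorins were scarce apart from Sema3a, the classic repellent of cortical axons and a component of perineuronal nets. Sema3a measured 41.3, 49.5 and 51.9 CPM (3.43 ± 0.401 CPM per kb), the smallest spread relative to its mean of any member, with a coefficient of variation of 11.7%. It made up 73.3 ± 2.11% of the summed CPM of the 7 secreted ligands. Sema3c, which binds both neuropilins, was next at 7.93, 8.79 and 3.58 CPM (0.948 ± 0.392 CPM per kb). Sema3f, the Nrp2 ligand that limits dendritic spines, measured 2.32, 1.78 and 4.27 CPM (0.537 ± 0.252 CPM per kb). Sema3d measured 1.997, 7.25 and 2.65 CPM, Sema3e 1.46, 1.78 and 4.96 CPM, and Sema3b 1.24, 0.446 and 1.4997 CPM. Sema3d was highest in replicate 2 and Sema3e in replicate 3, so these low genes did not move together.

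Sema3g had 0 counts in all 3 libraries, which allows up to 0.162, 0.122 and 0.346 CPM in replicates 1, 2 and 3. Sema3g is known from endothelial cells, and of the 8 endothelial markers 6 were detected. Of the detected ones Slco1a4 measured 1.65 ± 0.972 CPM per kb and Flt1 0.730 ± 0.624 CPM per kb. Cldn5 was among those not detected, with 0.378 CPM in replicate 1, and measured 1.20 ± 1.02 CPM per kb.

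Membrane-attached semaphorins had a higher median level than secreted ones in every library. The 7 secreted ligands had medians of 0.260, 0.343 and 0.501 CPM per kb in replicates 1, 2 and 3. Over the 13 membrane-attached ligands it was 5.30, 5.06 and 5.295 CPM per kb. The medians of the 3 libraries did not overlap, while single genes did, since Sema3a was above Sema4b, Sema4c and Sema6c in mean CPM per kb. Per kb of coding sequence Sema3a was at 20.5 and ranked 10 among all members, against 20 per kb of exon. Of the membrane-attached ligands only Sema6d, Sema5a, Sema4g and Sema4f were then above it, at 33.96, 32.9, 23.7 and 22.1. Secreted minus membrane-attached medians gave −3.91, −3.54 and −3.17 on the log2(CPM per kb + 0.1) scale (mean −3.54 ± 0.37). With a pseudocount of 1 the mean was −2.19 ± 0.13. Secreted ligands took 10.7 ± 2.79% of all semaphorin CPM.

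Class 6, whose members bind A-type plexins, held the semaphorin with the highest mean level. Sema6d measured 96.5, 74.2 and 161 CPM, or 10.5 ± 4.28 CPM per kb, and ranked between 3 and 7 of the 33 members in the libraries. It led the semaphorins in replicate 1 but was below Sema6a in replicate 2, at 7.03 against 7.51 CPM per kb, and below Sema4f in replicate 3, at 15.3 against 17.3. Sema6a was steadier at 46.5, 65.9 and 57.3 CPM (6.45 ± 1.11 CPM per kb). Sema6b reached 18.4, 21.6 and 36.3 CPM (6.42 ± 2.41 CPM per kb), a level close to that of Sema6a per kb of exon. Per kb of coding sequence they were apart, at 9.58 for Sema6b and 17.8 for Sema6a. Sema6c measured 8.53 and 5.65 CPM in replicates 1 and 3 but 0.770 in replicate 2 (19 counts). It was thus low in 1 library.

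Of the 6 class 4 semaphorins 5 were detected. Sema4f, which carries a PDZ-binding tail for the postsynaptic scaffold PSD-95, measured 36.0, 27.3 and 91.6 CPM (9.76 ± 6.60 CPM per kb). Its rank among the members ran from 1 in replicate 3 to 13 in replicate 2, so its place in the order differed between libraries. Sema4g measured 59.0, 46.8 and 72.6 CPM (6.86 ± 1.49 CPM per kb). Sema4a, best known from immune cells and the retina, measured 40.4, 15.4 and 62.8 CPM (7.31 ± 4.38 CPM per kb). Sema4d, which promotes inhibitory synapses through Plxnb1 and is also made by oligodendrocytes, measured 39.5, 22.4 and 35.6 CPM (4.23 ± 1.17 CPM per kb). Sema4b was lower and steady at 15.1, 11.1 and 12.1 CPM (2.26 ± 0.362 CPM per kb).

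Sema4c, a Plxnb2 ligand, measured 10.5 CPM in replicate 1 and 7.50 in replicate 3, with 194 and 65 counts. Replicate 2, the deepest library, held 3 counts, which is 0.122 CPM with an exact 95% Poisson interval of 0.0251 to 0.355 CPM. The interval covers counting error only. Sema4c exons share 7.27% of their bases with D430040D24Rik on the opposite strand.

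Class 5 semaphorins, which carry thrombospondin repeats and act on A-type plexins in the retina, were both detected. Sema5a measured 120.4, 111 and 86.8 CPM (5.67 ± 0.929 CPM per kb). Sema5b, which takes part in synapse elimination, measured 63.7, 16.6 and 37.5 CPM (5.54 ± 3.34 CPM per kb). Mean levels per kb were thus close, but Sema5b spread over a 3.85-fold range and Sema5a over a 1.39-fold range. Per kb of coding sequence they were not close, at 32.9 for Sema5a and 11.7 for Sema5b, since much of the Sema5a exon length of 18686 bases lies outside the 3222 coding bases. Sema7a, the only GPI-anchored member, measured 17.1, 16.7 and 9.23 CPM (4.34 ± 1.34 CPM per kb), lowest in replicate 3.

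The plexin domain containing genes resemble plexins in 1 domain and are not known as semaphorin receptors. Plxdc2 measured 65.9, 49.98 and 41.2 CPM (7.54 ± 1.80 CPM per kb). Plxdc1, first described in tumour endothelium, measured 5.29, 3.97 and 9.34 CPM (1.28 ± 0.579 CPM per kb). Plxdc2 was the higher in 3 of 3 libraries, by 2.52 ± 0.82 on the log2(CPM per kb + 0.1) scale (exact permutation p = 0.25). Counting both as receptors gave a receptor minus ligand difference of 0.95 ± 0.36.

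In 8 known receptor and ligand pairs, receptors exceeded their ligand in 6 pairs and fell below it in 2, with the same sign in 3 of 3 libraries for each pair. Plxnd1 exceeded Sema3e by 4.38, 4.43 and 4.15 on the log2(CPM per kb + 0.1) scale (mean 4.32 ± 0.15). Nrp2 exceeded Sema3f by 3.70, 4.63 and 3.07 (mean 3.80 ± 0.79). Which of these gaps was the wider depended on the length used, since per kb of coding sequence they were 3.03 ± 0.31 and 4.80 ± 0.84. Plxnc1 exceeded Sema7a by 2.17 ± 0.44. By mean CPM per kb among detected genes, Plxnc1 was at percentile 83.6, Nrp2 at 61.5 and Plxnd1 at 57.5. Of their ligands Sema7a was at percentile 39.7, Sema3f at 1.77 and Sema3e at 0.281.

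Smaller gaps were found in the other pairs. Plxna2 exceeded Sema6a by 0.80 ± 0.34, and Plxnb1 exceeded Sema4d by 0.60 ± 0.50. The latter turned to −0.098 ± 0.506 per kb of coding sequence, so no order holds for that pair. Plxnb2 exceeded Sema4c by 0.11, 4.31 and 1.16, a mean of 1.86 ± 2.19 that fell to 0.63 ± 0.74 without replicate 2. For the other two pairs the ligand was the higher. Nrp1 was below Sema3a by 1.63, 1.53 and 1.80 (mean difference −1.66 ± 0.14), and Plxna1 was below Sema6d (−0.31 ± 0.22). Per kb of coding sequence both differences were wider, at −2.48 ± 0.14 and −1.33 ± 0.22. The exact two-sided permutation test over libraries gave p = 0.25 for each of the 8 pairs, the smallest that 3 libraries allow, and 0.25 after Benjamini-Hochberg adjustment over the 8.

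**Figure D2:**
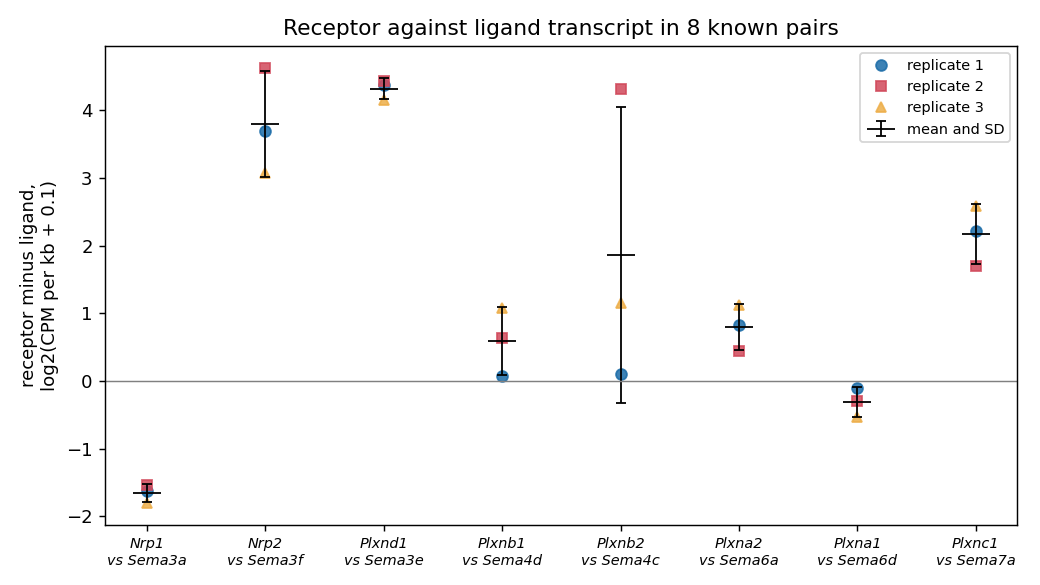
Receptor minus ligand difference on the log2(CPM per kb + 0.1) scale (y axis) for 8 known pairs (x axis) in each library (symbols), with the mean and SD over 3 libraries. Points above 0 have the receptor higher, and the pair of Nrp1 and Sema3a and the pair of Plxna1 and Sema6d lie below 0 in all 3 libraries.

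No member was called as varying between the libraries beyond genes of like abundance. The edgeR goodness-of-fit test called 0 of 32 members tested at an adjusted p of 0.05 (Benjamini-Hochberg over 15336 genes), beside 0.222% of all tested genes. At an unadjusted p of 0.05 it picked 1 member, Sema4c (adjusted p = 0.355), beside 7.09% of genes. DESeq2's dispersion outliers included 0 members, beside 0.137% of genes. With a common dispersion 1 member was called, again Sema4c, beside 5.11% of genes. Over all genes the edgeR test with trended dispersion made 34 calls, and without replicates 1, 2 and 3 it made 9, 4 and 24, with 0 members among them. Of the members tested 10, 6 and 16 were highest in replicates 1, 2 and 3, beside 31.6%, 29.2% and 39.2% of genes. Lowest values fell in replicates 1, 2 and 3 for 10, 18 and 4 members, beside 34.7%, 37.8% and 27.5% of genes. Astrocyte, precursor and microglial marker sums were also lowest in replicate 2, at 467, 121 and 25.1 CPM. Their part in these values was not tested.

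Coreceptors and partners of the pathway were detected for 7 of 12 genes, a share close to the 57.6% of protein-coding genes detected. The 5 of highest mean CPM, which is not corrected for length, are given here. The adhesion molecules Nrcam and L1cam, which form complexes with neuropilins, measured 240 ± 29.3 CPM and 227 ± 80.2 CPM, and their relative Chl1 149 ± 14.5 CPM. The proteoglycan Cspg4, also 1 of the 6 precursor markers, measured 24.9 ± 14.7 CPM. The integrin Itgb1, part of the Sema7a receptor, measured 16.4 ± 2.70 CPM. Met and Erbb2, receptor kinases that associate with B-type plexins, were uneven. Erbb2 measured 12.1, 0 and 0.577 CPM in replicates 1, 2 and 3 and Met 0, 7.82 and 3.23 CPM, and both were named after their values were seen. On this list 0 of 10 tested genes were called as varying by edgeR (2 at an unadjusted p of 0.05, beside 7.09% of all tested genes).

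Genes that act downstream of plexins and neuropilins were detected for 33 of 34 genes, beside 57.6% of protein-coding genes. The list median was 14.0 ± 0.933 CPM per kb, against 5.81 ± 0.318 over detected genes. The 5 genes of highest mean CPM, an order that length enters, were Rac1, Pak1, Mical2, Gsk3b and Rock2. The small GTPase gene Rac1 measured 189 ± 62.1 CPM per kb and its effector kinase Pak1 179 ± 59.2. Mical2, of a family of oxidases that disassemble actin below plexins, measured 45.4 ± 11.8 CPM per kb. The kinases Gsk3b and Rock2 measured 65.6 ± 20.7 and 35.9 ± 12.6 CPM per kb. Per kb, Cfl1 at 173 ± 64.6 and Dpysl2 at 92.5 ± 21.3, both named after their values were seen, were above Mical2, Gsk3b and Rock2. Fes, a kinase described in Sema3a signalling, was the gene that was not detected, at 0.966 ± 1.01 CPM. The edgeR test called 0 of 33 tested genes of this list, with 0 at an unadjusted p of 0.05, beside 0.222% and 7.09% of all tested genes.

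Vascular growth factors that share the neuropilins were detected for 3 of 5 genes, a share close to the 57.6% of protein-coding genes. Vegfa measured 72.1, 47.7 and 88.7 CPM, Vegfb 19.8 ± 3.15 CPM and Vegfc 3.78 ± 1.03 CPM. Pgf measured 1.10 ± 1.57 CPM and Vegfd 0.829 ± 0.868 CPM. Kdr, an endothelial receptor of Vegfa, was at 2.77 ± 0.808 CPM.

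Summed levels set the family beside the marker lists. A-type plexins summed to 355, 387 and 533 CPM, B-type plexins to 94.9, 67.3 and 145 CPM, and the neuropilins to 91.7, 140.01 and 100.02 CPM in replicates 1, 2 and 3. The neuropilin sum was highest in replicate 2, as were the sums of neuron markers and of endothelial markers (67.0 CPM). Of the neuron sum of 11829, 17399 and 9489 CPM in replicates 1, 2 and 3, Snap25 alone took 7606, 13126.5 and 6317. The Plxdc sum was highest in replicate 1, at 71.2 CPM. So were the sums of oligodendrocyte (386 CPM), astrocyte (1091 CPM), mural and fibroblast (170.2 CPM) and microglial markers (41.1 CPM). Their part in these sums was not tested.

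**Figure D3:**
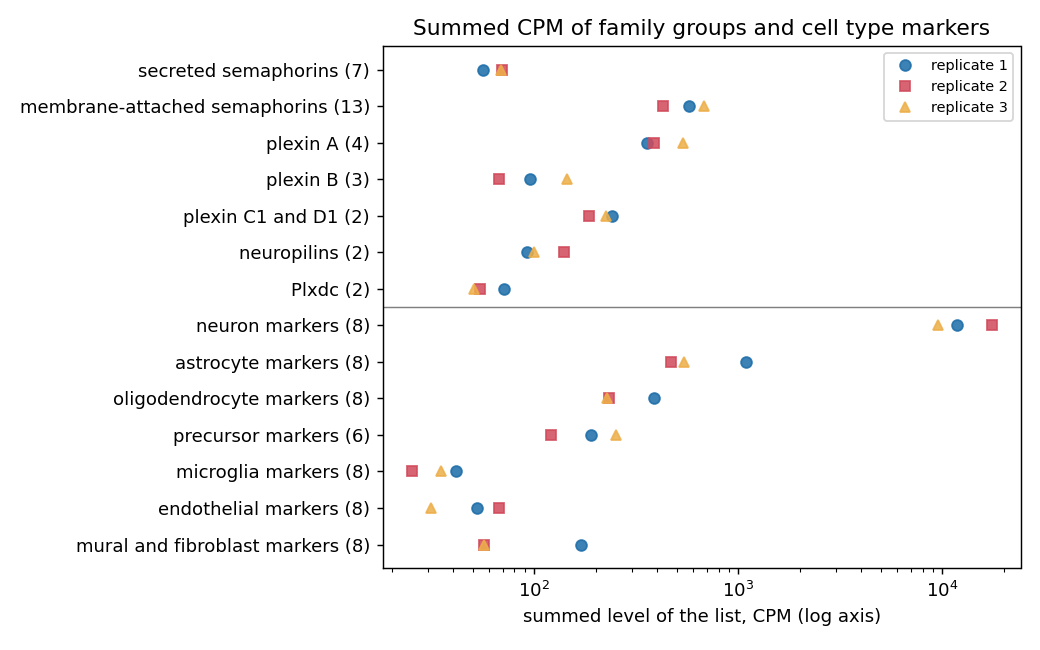
Summed CPM (x axis, logarithmic) of the family groups and of cell type marker lists (rows, number of genes in parentheses) in the 3 libraries (symbols). Neuron markers lie at 9489 to 17399 CPM, and mural and fibroblast markers stand at 170.2 CPM in replicate 1 against 56.4 in each of the others.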

How the data were processed

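RNA captured by translating ribosome affinity purification was sequenced in 3 libraries of 1 group. Each library's deposited file holds raw gene counts. The submitters' processing notes name STAR 2.0.0e, HTSeq and the build mm10. Neither annotation nor strand setting nor kit is given in the sources used here. HTSeq's 5 summary classes stayed out of totals. Reads in no counted feature made up 31.4%, 25.6% and 45.3% of entries in replicates 1, 2 and 3. Entries aligned to several places made up 16.5% to 32.7% and ambiguous reads 1.26% to 1.98%.

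CPM and CPM per kb were computed from these counts. Exon and coding lengths came from GENCODE M21 (GRCm38, the assembly that mm10 names), found for 33 of 33 members, 71.2% of listed genes and 88.8% of those that average at least 1 CPM. Promoter windows came from RefSeq (GRCm38.p6). All 136 symbols on the gene lists were found, Vegfd under its older name. Receptors are plexins and neuropilins, ligands semaphorins. Variation among libraries used edgeR 4.0.16 and R 4.3.3, with an intercept-only fit, TMM scaling and trended dispersion. The p came from a chi-square goodness of fit on 2 degrees of freedom, with Benjamini-Hochberg over genes averaging at least 1 CPM. The test was also run on counts simulated with the dispersions fitted here, which cannot show how it does on the real counts. With 1 group no quasi-likelihood contrast exists. DESeq2 1.42.0 served as an alternative. Python 3.11.15, pandas 2.3.3, numpy 2.4.6, SciPy 1.17.1 and matplotlib 3.10.9 did the rest.

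The members and lists were chosen with earlier results of these data known. Named were all members, the 5 genes of highest mean CPM of the coreceptor, signalling and growth factor lists, and Lypd1. Also named were 3 genes of each marker list, given here in full for the endothelial list only. Sums are given for the others, with Snap25 for the neuron list. Alternatives were other detection thresholds, pseudocounts, lengths, scalings, filters and dispersions, list means, and leaving out each replicate. Whether libraries are separate animals is not stated for each, so the spread is that between libraries.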

Additional observations from a re-analysis of the deposited data

How the results depend on the processing

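Of the differences between medians and between pairs, the signs held under all alternatives run, except for Plxnb1 minus Sema4d, which was −0.098 per kb of coding sequence. The cause was not tested. On CPM without length correction the pseudocount was 1 instead of 0.1, so length and pseudocount changed together. There Plxnc1 minus Sema7a was 3.44 (2.17 per kb of exon) and Plxna2 minus Sema6a 1.76 (0.80). Nrp2 minus Sema3f was 4.77 (3.80) and Plxnd1 minus Sema3e 3.95 (4.32). Receptor minus ligand medians moved from 1.06 to 1.67 on CPM without length correction and to 0.52 per kb of coding sequence, and leaving out 1 replicate gave 0.82 to 1.33. Secreted minus membrane-attached medians moved from −3.54 to −2.19 with a pseudocount of 1 and to −2.97 with list means, and leaving out 1 replicate gave −3.72 to −3.35. A pseudocount of 1 shrinks differences of low genes by construction. Leaving out 1 replicate gave 0.63 to 2.74 for Plxnb2 minus Sema4c. Members detected numbered 23 at 5 CPM, 30 at 0.5 CPM and 29 to 32 with 1 replicate left out, where 32 is the value without replicate 2. The count of all genes called as varying was 34, and it was 783 with a common dispersion, 21 as DESeq2 dispersion outliers and 4 to 24 with 1 replicate left out, 4 without replicate 2 and 9 without replicate 1. Among members it was 0, and 1 with a common dispersion, and 0 in each run without 1 replicate. No paired comparison between groups was possible because there is 1 group, while genes were compared with each other within each library. Depth limits the members under 5 CPM, above all in replicate 3, where 1 CPM is fewest counts.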
